A study of Mus musculus with 12 samples.

Results

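The BCL2 family and the PIM kinases were followed here through 10 genes, taken by symbol from a table of 22915 genes. They are the anti-apoptotic genes Bcl2, Bcl2l1 (encoding BCL-XL) and Mcl1, the effectors Bax and Bak1, the BH3-only genes Bbc3 (PUMA) and Bcl2l11 (BIM), and the kinases Pim1, Pim2 and Pim3. All 10 were found, and all 10 reached the minimum for testing (a value of 10 or more in 3 or more libraries), which 13184 genes reached in total. Primary cardiomyocytes of adult male C57/Bl6 mice, 12 weeks of age, were kept in normoxia and exposed for 24 h to murine LIF (mLIF), murine OSM (mOSM), a human-like OSM variant (hlOSM) or PBS, the solvent, as the control. The labels give 25 ng/mL for each cytokine, whereas the methods of the paper give a slightly lower concentration. Each condition had 3 libraries, 12 in all. In murine cells mLIF acts on LIFR, mOSM on OSMR, and hlOSM, which carries the AB loop of human OSM, on both receptors. The paper's methods mention biological replicates in passing, but the sources used here do not state whether the libraries of a condition came from separate isolations or pooled animals, so the p-values measure the spread between these libraries, part of which may be technical.

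Proteins of the BCL2 family decide whether the outer mitochondrial membrane stays closed. BAX and BAK1 form pores that release cytochrome c, anti-apoptotic members hold them in check, and BH3-only proteins such as PUMA and BIM bind and neutralise the anti-apoptotic members. PIM kinases are constitutively active serine/threonine kinases whose activity follows the amount of protein, and they phosphorylate the BH3-only protein BAD. PIM genes and several anti-apoptotic genes are known targets of STAT factors in many cell types, which links them to gp130 cytokines.

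The promoters of 4 members are shown because Pim3, Bak1 and Bcl2l1 carried the increases described below, and Pim1, whose level under PBS was nearest to that of Pim3, did not increase. The windows come from RefSeq on GRCm38.p6 (mm10) and run from 250 bases before to 50 bases after a start site. Capitals mark GGGCGG, the core of the GC box, on either strand.
Pim3, chr15:88861944-88862243, plus strand: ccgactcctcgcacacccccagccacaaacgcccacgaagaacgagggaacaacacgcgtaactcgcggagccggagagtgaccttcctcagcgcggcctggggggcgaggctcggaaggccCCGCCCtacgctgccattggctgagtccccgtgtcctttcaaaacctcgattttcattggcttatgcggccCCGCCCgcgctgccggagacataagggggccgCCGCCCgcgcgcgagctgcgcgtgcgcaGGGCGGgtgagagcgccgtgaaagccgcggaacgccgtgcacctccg
Pim1, chr17:29490535-29490834, plus strand: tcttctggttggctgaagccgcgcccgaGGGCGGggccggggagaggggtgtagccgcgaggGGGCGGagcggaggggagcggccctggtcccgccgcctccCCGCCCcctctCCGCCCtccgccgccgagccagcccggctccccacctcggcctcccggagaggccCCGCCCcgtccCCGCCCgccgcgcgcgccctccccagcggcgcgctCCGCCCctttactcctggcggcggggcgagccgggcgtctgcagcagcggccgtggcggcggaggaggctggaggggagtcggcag
Bcl2l1, chr2:152831679-152831978, minus strand: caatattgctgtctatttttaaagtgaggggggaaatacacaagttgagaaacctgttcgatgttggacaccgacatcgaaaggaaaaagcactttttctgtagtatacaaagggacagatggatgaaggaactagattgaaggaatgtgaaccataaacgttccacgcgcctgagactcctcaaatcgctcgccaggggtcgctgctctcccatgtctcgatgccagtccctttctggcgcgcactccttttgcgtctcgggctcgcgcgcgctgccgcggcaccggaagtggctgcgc
Bak1, chr17:27028578-27028877, minus strand: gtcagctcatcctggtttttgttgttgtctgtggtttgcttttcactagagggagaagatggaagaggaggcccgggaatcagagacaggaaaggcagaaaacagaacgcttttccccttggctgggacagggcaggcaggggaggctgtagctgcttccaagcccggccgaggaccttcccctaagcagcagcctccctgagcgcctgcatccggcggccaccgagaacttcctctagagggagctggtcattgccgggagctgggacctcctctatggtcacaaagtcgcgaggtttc
The window of Pim3 held 4 and that of Pim1 held 7 such matches, those of Bcl2l1 and Bak1 held 0, and 35.7% of all 32851 windows of this length held at least 1. The palindromic letters TTCNNNGAA, which STAT dimers are known to bind, were in 0 of the 16 windows of the 10 members and in 8.30% of all windows. This says only that these letters are not in these windows. The start site used lay within 32 bases of the gene start in the deposited table for Pim3, Pim1 and Bcl2l1, and 382 bases from it for Bak1. GC content was 69% in Pim3, 81.3% in Pim1, 52.3% in Bcl2l1 and 58.3% in Bak1, against a median of 52.7% over all windows.

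Expression is given as the normalized count deposited by the authors, rounded to whole numbers and not divided by gene length. It is not a read count, and the number of counted reads behind each value is unknown. The paper gives only an average sequencing depth per library. Library totals of these values lay between 2745748 and 2911891. Tests used limma over the 12 libraries together, on log2 values after adding 1 to each normalized count. The threshold was a Benjamini-Hochberg adjusted p of 0.05, two-sided and adjusted over all 13184 genes, and log2 fold changes are on this scale. The replicate number held 1.70% of the variance within conditions, where 25% would be its share without an effect. Whether an effect of it was taken out before deposit is not given in the sources used here and was not tested. If it was, adjusted p-values without a block for the replicate number would be too small. Each call against PBS of a member or listed gene that such a block ended is therefore named beside its result. This was not done for genes that overlap members. RNA came from whole cultures, so fewer cells of a type and less RNA per cell cannot be told apart.

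The cell type was checked with 8 cardiomyocyte markers, all of them detected. Their summed normalized counts were 18096 to 19952 under PBS, 15626 to 17558 under mLIF, 14275 to 16827 under mOSM and 14954 to 15489 under hlOSM. With mLIF, mOSM and hlOSM, 5, 6 and 6 of the 8 fell, where 4.44%, 15.8% and 19.8% of all genes did. With the block for the replicate number 3 fell with mLIF, the calls of Ryr2 (adjusted p = 0.067) and Pln (adjusted p = 0.0575) being lost. Transcripts of other cells were present. For PBS, mLIF, mOSM and hlOSM, the sum of 6 endothelial markers was 1045 to 1086, 1025 to 1070, 1283 to 1445 and 1265 to 1394. Of these 6 markers, 5 rose with mOSM and 4 with hlOSM, where 15.4% and 18.2% of all genes rose. Pecam1 fell with mLIF (−0.28, limma adjusted p = 0.00916) and did not pass with mOSM or hlOSM. The sum of 6 fibroblast markers was 1982 to 2216, 1847 to 1981, 2202 to 2597 and 2079 to 2320, where Col3a1 and Dcn rose while Col1a2 and Pdgfra fell with both OSM forms. Col1a1 fell with hlOSM only (−0.34, limma adjusted p = 0.00224). Here the block ended the calls of Col1a2, lower with mLIF (adjusted p = 0.0755), and Lum, higher with hlOSM (adjusted p = 0.0748). The sum of 5 leukocyte markers was 295 to 311, 276 to 312, 334 to 378 and 309 to 380, and that of 4 smooth muscle and mural markers was 212 to 294, 190 to 208, 104 to 117 and 93 to 99. Of the latter, Myh11, Tagln and Rgs5 fell with mOSM (−2.18, −1.30 and −0.63) and with hlOSM (−1.48, −1.76 and −0.79). Cnn1, near 0, was not tested. Among the leukocyte markers Cd68, a macrophage gene, rose with all 3 cytokines (0.61, 1.22 and 1.28 on the log2 scale), Lyz2 fell with hlOSM (−0.27), and the other 3 did not pass. Of 6 leukocyte markers listed, all but Cd3e were in the table. No marker in the table was at 0 in every library. The part of these shifts in the results below was not tested.

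With mLIF, Pim3 and Bak1 rose against PBS and no member fell. Thus 2 of 10 members passed, where 9.91% of all genes did (5.47% upward and 4.44% downward). With mOSM, Pim3, Bak1 and Bcl2l1 rose and 0 members fell, 3 of 10 against 31.2% of all genes (15.4% upward and 15.8% downward). With hlOSM the same 3 members rose and Bcl2 and Pim1 fell, 5 of 10 against 37.9% of all genes (18.2% upward and 19.8% downward). With 10 members these shares lie near the background, and the number of members called is not a result about the family. The libraries did not overlap with those of PBS for 3, 4 and 6 members with mLIF, mOSM and hlOSM, while this held for 30.3%, 40.1% and 47.0% of all genes. For mLIF, mOSM and hlOSM, the median log2 fold change of the 10 members was 0.046, 0.018 and 0.11, against medians of 0.00037, −0.0043 and −0.0052 over all genes. Mcl1, Bax, Bbc3, Bcl2l11 and Pim2 passed with none of the 3 cytokines against PBS. The 3 comparisons share the PBS libraries and are not independent of each other. The overall F test of the 4 conditions called 4 members, Bcl2, Bcl2l1, Bak1 and Pim3, and 34.2% of all genes. With the block, Bcl2 did not pass it (adjusted p = 0.117).

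**Figure D1:**
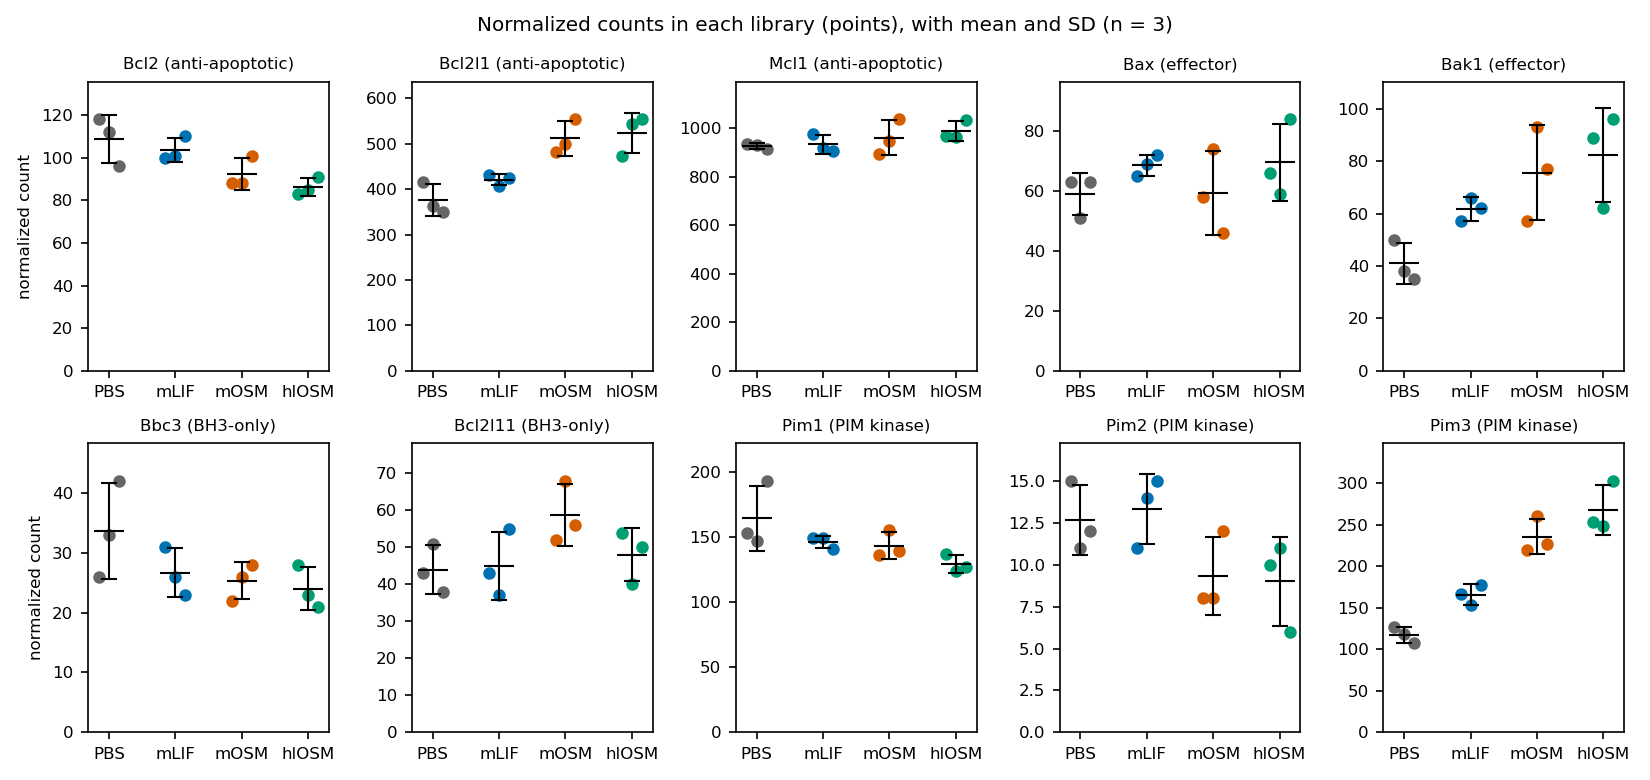
Normalized counts of the 10 members (linear axes from 0) in the 3 libraries of each condition, with the mean and SD. The hlOSM libraries of Pim3 lie between 248 and 303, all above the PBS libraries at 108 to 127, whereas Mcl1 stays between 895 and 1037 in all 12 libraries.

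**Figure D2:**
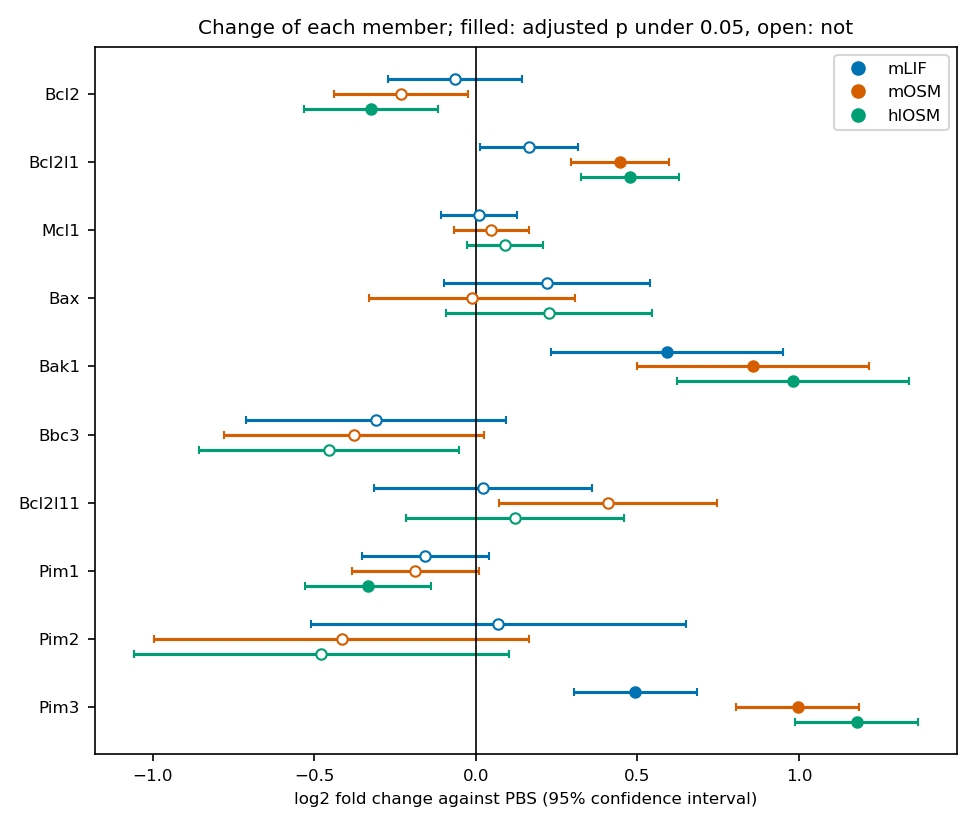
Log2 fold change against PBS with its 95% confidence interval from limma for each member and cytokine, filled where the adjusted p over all genes was under 0.05. Pim3 and Bak1 are filled with all 3 cytokines, Bcl2l1 with mOSM and hlOSM, and Bcl2 and Pim1, which lie below 0, with hlOSM.

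Among the kinases, Pim3 (ENSMUSG00000035828, mm10 chromosome 15, 88862186 to 88865726, plus strand) changed most. It had 127, 118 and 108 normalized counts in the PBS libraries, 167, 153 and 178 in the mLIF libraries, 220, 260 and 227 in the mOSM libraries and 253, 248 and 303 in the hlOSM libraries. Every cytokine library lay above every PBS library, every mOSM and hlOSM library lay above every mLIF library, and mOSM and hlOSM overlapped. Its log2 fold change against PBS was 0.49 with mLIF (standard error 0.09, limma adjusted p = 0.00161), 1.00 with mOSM (adjusted p = 2.33e-08) and 1.18 with hlOSM (adjusted p = 1.18e-09). On the linear scale these changes were 1.41-fold, 1.99-fold and 2.26-fold. All 3 calls were kept when any single library was left out.

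Pim1 (ENSMUSG00000024014, mm10 chromosome 17, 29490753 to 29496112, plus strand), the PIM gene best known as a STAT3 target, did not follow Pim3. It had 153, 147 and 193 normalized counts in the PBS libraries, 149, 149 and 141 in the mLIF libraries, 136, 155 and 139 in the mOSM libraries and 137, 124 and 127 in the hlOSM libraries. No cytokine library exceeded the highest PBS library, and all hlOSM libraries were below all PBS libraries. The change with hlOSM was −0.33 (standard error 0.09, limma adjusted p = 0.0077). It rested in part on replicate 3 of PBS, without which it was −0.21 with an adjusted p of 0.0766, within a range of 0.00386 to 0.0766 over the fits that left out 1 library. With mLIF and mOSM the log2 differences of −0.16 and −0.19 did not pass (adjusted p = 0.308 and 0.139), with 95% confidence intervals of −0.35 to 0.04 and −0.38 to 0.0082. Of its exonic bases, 14.5% overlap Gm26885 on the other strand, and it is not stated whether counting used strand. Gm26885 had 8 to 24 normalized counts per library and rose with mOSM (0.83, limma adjusted p = 0.0429).

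Pim2 (ENSMUSG00000031155, mm10 chromosome X, 7878262 to 7883432, plus strand), known mainly from lymphoid cells, was near the minimum for testing. It had 15, 11 and 12 normalized counts in the PBS libraries, 11, 14 and 15 in the mLIF libraries, 8, 8 and 12 in the mOSM libraries and 10, 11 and 6 in the hlOSM libraries. All conditions overlapped. With hlOSM the log2 difference from PBS was −0.48 with a 95% confidence interval of −1.06 to 0.10 (limma adjusted p = 0.188), and with mLIF and mOSM it was 0.069 and −0.42.

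Per kb of exon, Pim3 and Pim1 stood at nearly the same level under PBS, at 48.5 ± 3.92 and 48.9 ± 7.44 normalized counts per kb (SD, n = 3). With hlOSM Pim3 stood at 110.4 ± 12.5 and Pim1 at 38.5 ± 2.02 (SD, n = 3). Of the summed level per kb of the 3 PIM genes, Pim3 held 41.9% to 50.7% in the PBS libraries, 56.1% to 60.8% in the mLIF, 67.2% to 68.6% in the mOSM and 70.2% to 75.8% in the hlOSM libraries. These ranges did not overlap between conditions. The summed level itself was 102 ± 5.09 normalized counts per kb under PBS, 117 ± 4.15 under mLIF, 143 ± 11.6 under mOSM and 152 ± 11.3 under hlOSM (each SD, n = 3). Shares and sums are descriptions without a test. Exon length here counts all annotated exons of a gene merged, whichever forms the cells used. It includes bases shared with other genes, although reads overlapping several genes were left out of the counting. Levels per kb are therefore only approximate between genes.

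**Figure D3:**
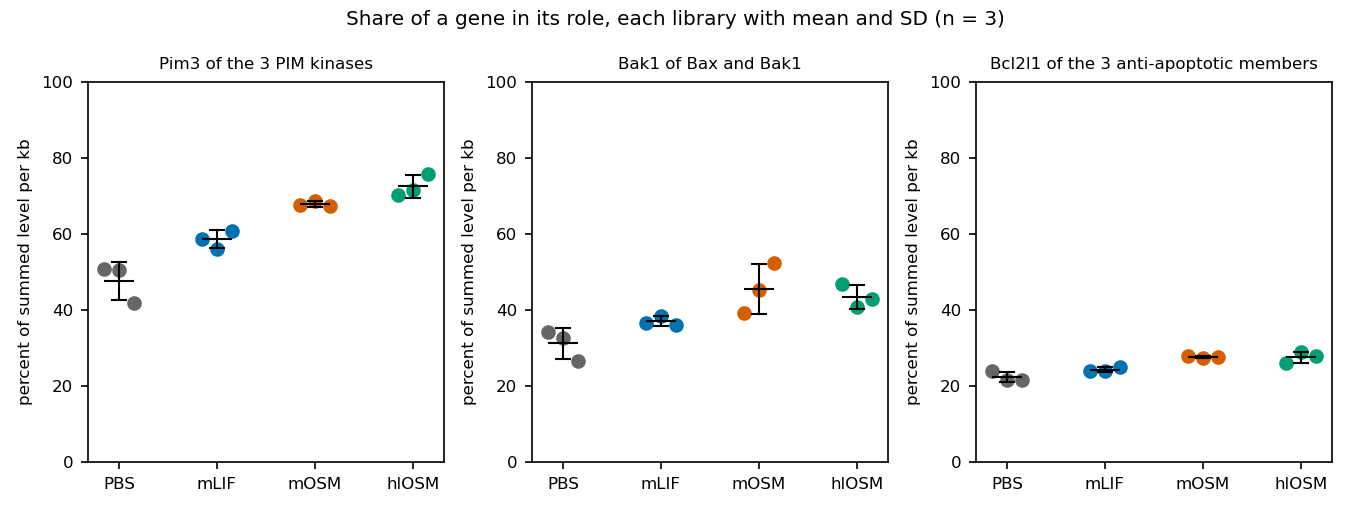
Share of Pim3 in the 3 PIM genes, of Bak1 in Bax and Bak1, and of Bcl2l1 in the 3 anti-apoptotic members (percent of the summed normalized count per kb of exon) for each library, with the mean and SD of each condition. From PBS to hlOSM the share of Pim3 goes from 41.9% to 50.7% up to 70.2% to 75.8%, that of Bak1 from 26.7% to 34.2% up to 40.8% to 46.9%, and that of Bcl2l1 from 21.5% to 24.0% up to 26.1% to 29.0%.

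The anti-apoptotic members moved apart from each other. Bcl2l1 (ENSMUSG00000007659, mm10 chromosome 2, 152780668 to 152831728, minus strand), whose main product BCL-XL holds BAX and BAK1 inactive, had 415, 363 and 350 normalized counts in the PBS libraries, 431, 407 and 424 in the mLIF libraries, 481, 500 and 554 in the mOSM libraries and 473, 544 and 554 in the hlOSM libraries. All mOSM and hlOSM libraries lay above all PBS and mLIF libraries, while mLIF overlapped PBS. It rose by 0.44 on the log2 scale with mOSM (standard error 0.07, limma adjusted p = 6.24e-05) and by 0.48 with hlOSM (adjusted p = 2.01e-05). With mLIF the difference of 0.17 did not pass (adjusted p = 0.157, 95% confidence interval 0.013 to 0.32). Values per gene do not separate the splice forms BCL-XL and BCL-XS, which act in opposite directions.

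Bcl2 (ENSMUSG00000057329, mm10 chromosome 1, 106538178 to 106714274, minus strand), the founding member of the family, had 118, 112 and 96 normalized counts in the PBS libraries, 100, 101 and 110 in the mLIF libraries, 88, 88 and 101 in the mOSM libraries and 83, 85 and 91 in the hlOSM libraries. All hlOSM libraries were below all PBS and mLIF libraries, and mOSM overlapped both. The change with hlOSM was −0.32 on the log2 scale (standard error 0.10, limma adjusted p = 0.0136). Without replicate 1 of PBS it was −0.26 with an adjusted p of 0.0764, in a range of 0.00471 to 0.0764 over the fits that left out 1 library. With mOSM the difference was −0.23 (adjusted p = 0.0848), and it passed without replicate 3 of PBS (−0.32, adjusted p = 0.031) or without replicate 3 of mOSM (−0.30, adjusted p = 0.0402), in a range of 0.031 to 0.287. With mLIF it was −0.063 (adjusted p = 0.737). Of its exonic bases, 6.09% overlap D630008O14Rik on the other strand.

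Mcl1 (ENSMUSG00000038612, mm10 chromosome 3, 95658788 to 95663176, plus strand), which encodes a short-lived anti-apoptotic protein that adult cardiomyocytes need, had the highest level per kb of all members. It had 936, 931 and 914 normalized counts in the PBS libraries, 978, 917 and 906 in the mLIF libraries, 895, 949 and 1037 in the mOSM libraries and 966, 963 and 1034 in the hlOSM libraries. The hlOSM libraries lay just above those of PBS, and the other conditions overlapped PBS. The log2 differences of 0.0096, 0.048 and 0.091 with mLIF, mOSM and hlOSM did not pass (limma adjusted p = 0.935, 0.557 and 0.217). Their 95% confidence intervals were −0.11 to 0.13, −0.069 to 0.17 and −0.026 to 0.21, so a change as large as that of Bcl2l1 with mOSM lies outside each. After quantile normalization the hlOSM difference was 0.14 and passed (adjusted p = 0.013), and it passed in none of the fits that left out 1 library (range 0.125 to 0.504).

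Per kb of exon under PBS, Mcl1 stood at 271 ± 3.37, Bcl2l1 at 82.0 ± 7.50 and Bcl2 at 11.9 ± 1.24 normalized counts (SD, n = 3), with no overlap. Of their summed level, Bcl2l1 held 22.4% ± 1.35 under PBS, 24.4% ± 0.548 under mLIF, 27.7% ± 0.182 under mOSM and 27.7% ± 1.43 under hlOSM (each SD, n = 3). Bcl2 held 3.25% ± 0.249 under PBS and 2.29% ± 0.0166 under hlOSM (SD, n = 3), a small part of the sum by this measure. The merged exons were 9157 bases long for Bcl2, 4586 for Bcl2l1 and 3418 for Mcl1.

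Of the effectors, Bak1 rose while Bax passed in no comparison. Bak1 (ENSMUSG00000057789, mm10 chromosome 17, 27019810 to 27029009, minus strand) had 50, 38 and 35 normalized counts in the PBS libraries, 57, 66 and 62 in the mLIF libraries, 57, 93 and 77 in the mOSM libraries and 89, 62 and 96 in the hlOSM libraries. Every cytokine library lay above every PBS library, and the cytokines overlapped each other. Its log2 fold change was 0.59 with mLIF (standard error 0.17, limma adjusted p = 0.0319), 0.86 with mOSM (adjusted p = 0.000575) and 0.98 with hlOSM (adjusted p = 0.000106). The mLIF call was lost without replicate 2 or 3 of PBS or without any of the 3 mLIF replicates (log2 fold change 0.49 to 0.65, adjusted p 0.0524 to 0.14, in a range of 0.0117 to 0.14 over all such fits), after quantile normalization (adjusted p = 0.0589), and with the block for the replicate number (adjusted p = 0.0591). The calls with mOSM and hlOSM were kept in all of these. Of the exonic bases of Bak1, 25.5% overlap Ggnbp1 on the other strand, which had 8 to 30 normalized counts per library and fell with mOSM (−0.80, adjusted p = 0.0429), opposite to Bak1.

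Bax (ENSMUSG00000003873, mm10 chromosome 7, 45461697 to 45466898, minus strand) had 63, 51 and 63 normalized counts in the PBS libraries, 65, 69 and 72 in the mLIF libraries, 58, 74 and 46 in the mOSM libraries and 66, 59 and 84 in the hlOSM libraries. The mLIF libraries lay just above those of PBS, and the mOSM and hlOSM libraries overlapped them and spread more widely. The log2 differences were 0.22, −0.011 and 0.23 with mLIF, mOSM and hlOSM (limma adjusted p = 0.383, 0.964 and 0.259), with a 95% confidence interval of −0.092 to 0.55 for hlOSM. Of its exonic bases, 12.2% overlap Gm45808 on the same strand. Per kb of exon, Bax stood at 37.4 ± 4.40 and Bak1 at 17.0 ± 3.30 normalized counts under PBS (SD, n = 3). Under hlOSM they stood at 44.2 ± 8.18 and 34.2 ± 7.46 (SD, n = 3), where their ranges overlapped.

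The BH3-only members were at low levels and passed in no comparison. Bbc3 (ENSMUSG00000002083, mm10 chromosome 7, 16308393 to 16318205, plus strand), a classical target of p53, had 26, 33 and 42 normalized counts in the PBS libraries, 31, 26 and 23 in the mLIF libraries, 22, 26 and 28 in the mOSM libraries and 28, 23 and 21 in the hlOSM libraries. The cytokine libraries overlapped those of PBS, which spread most. The log2 differences were −0.31, −0.38 and −0.46 with mLIF, mOSM and hlOSM (limma adjusted p = 0.325, 0.147 and 0.0683). That with hlOSM passed without replicate 1 of PBS (−0.62, adjusted p = 0.0231) or without replicate 1 of hlOSM (−0.57, adjusted p = 0.0475), in a range of 0.0231 to 0.314.

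Bcl2l11 (ENSMUSG00000027381, mm10 chromosome 2, 128126038 to 128162547, plus strand), a target of FOXO factors, had 43, 51 and 38 normalized counts in the PBS libraries, 43, 37 and 55 in the mLIF libraries, 52, 68 and 56 in the mOSM libraries and 54, 40 and 50 in the hlOSM libraries. The lowest mOSM library was 1 normalized count above the highest PBS library, and mLIF and hlOSM overlapped PBS. The log2 difference with mOSM was 0.41 (limma adjusted p = 0.0604, 95% confidence interval 0.071 to 0.75). It passed without replicate 2 of PBS (0.52, adjusted p = 0.0353) or without replicate 3 of mLIF (adjusted p = 0.0495), in a range of 0.0353 to 0.242. With mLIF and hlOSM the differences were 0.023 and 0.12 (adjusted p = 0.946 and 0.59).

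**Figure D4:**
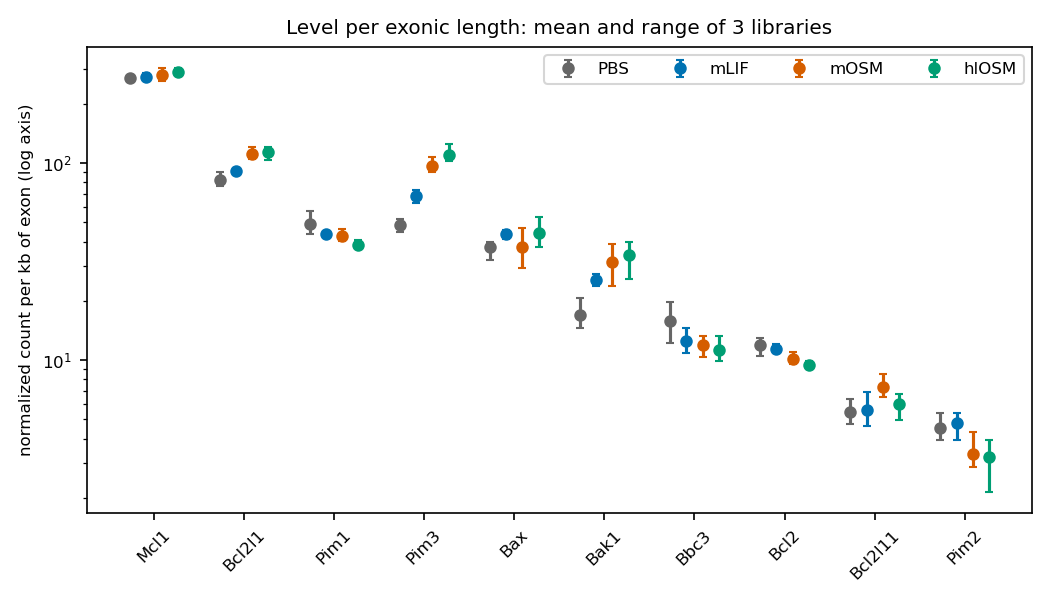
Normalized count per kb of exon (log axis) of the 10 members in each condition, ordered by their level under PBS. Mcl1 is highest at 271 and Pim2 lowest at 4.53 under PBS, and Pim3 moves from 48.5, beside Pim1, to 110.4 under hlOSM, beside Bcl2l1.

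Ordered by level per kb under PBS, the members were Mcl1, Bcl2l1, Pim1, Pim3, Bax, Bak1, Bbc3, Bcl2, Bcl2l11 and Pim2. By this measure Mcl1 was above 99.0% of the genes tested, Bcl2l1 above 86.3% and Pim2 above 12.1%. The ranges of the PBS libraries overlapped between Pim1 and Pim3, between Bak1 and Bbc3, between Bbc3 and Bcl2, and between Bcl2l11 and Pim2, but not between the other neighbours. Under hlOSM, Bcl2l1 at 114 and Pim3 at 110.4 overlapped each other, followed by Bax at 44.2, Pim1 at 38.5 and Bak1 at 34.2.

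The receptor arms were then compared directly. Against mLIF, both OSM forms gave higher Pim3 and Bcl2l1. These were 2 of 10 members with mOSM, where 11.8% of all genes passed (6.05% upward and 5.76% downward), and 2 of 10 with hlOSM, where 16.6% passed (7.42% upward and 9.22% downward). The libraries did not overlap for 2 members with mOSM (27.1% of all genes) and for 4 with hlOSM (31.7%), the latter including Bcl2 and Pim1 on the lower side. For Pim3 the log2 difference from mLIF was 0.50 with mOSM (limma adjusted p = 0.000531) and 0.68 with hlOSM (adjusted p = 1.08e-05). For Bcl2l1 it was 0.28 with mOSM (adjusted p = 0.0123) and 0.31 with hlOSM (adjusted p = 0.00438). The mOSM call of Bcl2l1 was lost without replicate 2 of mLIF (0.26, adjusted p = 0.0663) and without replicate 3 of mOSM (0.22, adjusted p = 0.0724), in a range that began at 0.00727. Bak1 did not pass, with differences of 0.27 and 0.39 (adjusted p = 0.379 and 0.137), although the latter was 0.58 without replicate 2 of hlOSM (adjusted p = 0.0286, in a range of 0.0286 to 0.405).

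Between hlOSM and mOSM, which differ in the AB loop and in the added use of LIFR, 0 of 10 members passed with limma and 0 had an unadjusted p under 0.05. Of all genes 0.106% passed, and 9.74% had libraries that did not overlap, against 0 of the members. The log2 difference of Pim3 was 0.18 (95% confidence interval −0.0067 to 0.37, adjusted p = 0.681). That of Bak1 was 0.12 (−0.23 to 0.48) and that of Bcl2l1 was 0.032 (−0.12 to 0.18). For Bcl2 and Pim1, which fell with hlOSM and did not pass with mOSM, the intervals of −0.30 to 0.11 and −0.34 to 0.05 hold 0, so a difference between the OSM forms was not shown.

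Because hlOSM addresses both receptors, its change can be set against the sum of the log2 changes with mLIF and mOSM. This interaction, (hlOSM minus mOSM) minus (mLIF minus PBS), passed for 0 of 10 members with limma and for 0.167% of all genes (0.0152% above and 0.152% below the sum). It had an unadjusted p under 0.05 in 1 member, Pim3, where hlOSM stood at 1.18 against a sum of 1.49. The difference was −0.31 (95% confidence interval −0.58 to −0.043, adjusted p = 0.354). For Bak1 hlOSM stood at 0.98 against 1.45 (difference −0.47, interval −0.97 to 0.04), and for Bcl2l1 at 0.48 against 0.61 (difference −0.13, interval −0.35 to 0.082).

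The rest of the family was described through a list of 18 genes, of which 16 were in the table and 10 were tested. Under mLIF 0 of the 10 rose or fell, 2 rose under mOSM, and under hlOSM 3 rose and 2 fell, where 9.91%, 31.2% and 37.9% of all genes passed in the 3 comparisons. These were at median log2 fold changes of 0.10, 0.091 and 0.12. Bcl2l15, a family member of little known function, had 7.33 ± 2.08 normalized counts under PBS, 10.7 ± 4.16 under mLIF, 29.7 ± 7.09 under mOSM and 35 ± 5.57 under hlOSM (each SD, n = 3). The change was 1.89 with mOSM (limma adjusted p = 1.77e-05) and 2.13 with hlOSM (adjusted p = 2.67e-06). No PBS library of Bcl2l15 reached 10, so it entered the tests through treated libraries, and part of its exons overlaps Gm43064 on the same strand. Its adjusted p-values, and its place among the genes counted as raised with mOSM and hlOSM, are therefore no support for a change. Bid, which links caspase-8 to mitochondria, rose by 0.71 with mOSM (adjusted p = 0.0015) and 0.54 with hlOSM (adjusted p = 0.00946), and 17.7% of its exonic bases overlap Bcl2l13 on the other strand. Bcl2l2, an anti-apoptotic gene with 13.3% of its exonic bases shared with Gm20521, rose by 0.33 with hlOSM (adjusted p = 0.00269). The 2 genes that fell with hlOSM were Bnip3 (−0.33, adjusted p = 0.00592) and Bnip3l (−0.21, adjusted p = 0.0474), which encode mitophagy receptors. The call of Bnip3l was lost with the block (adjusted p = 0.0813), and 22.2% of the exonic bases of Bnip3 overlap Gm45507 on the other strand. Bad, the PIM substrate, did not pass, with log2 differences of 0.12, 0.30 and 0.12, and 20.5% of its exonic bases overlap Gpr137 on the other strand. Bcl2a1b, Bcl2a1d and Bcl2l14 were at 0 in every PBS library and reached at most 2 anywhere, and reads shared between the near-identical Bcl2a1 copies were left out of the counting.

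Downstream of the mitochondria, 17 genes of the apoptosome, caspases, their inhibitors and VDAC channels are described. Under mLIF 0 rose and 1 fell, under mOSM 1 rose and 2 fell, and under hlOSM 1 rose and 4 fell, against 9.91%, 31.2% and 37.9% of all genes called in either direction. With the block these counts were 0 and 0, 0 and 1, and 0 and 3. The list stood at medians of −0.041, −0.054 and −0.077. Cycs, which encodes cytochrome c, had 164 ± 8.33 normalized counts under PBS and 135 ± 7.94, 139.7 ± 9.07 and 133 ± 4.93 under mLIF, mOSM and hlOSM (each SD, n = 3). These changes were −0.28, −0.23 and −0.30 (limma adjusted p = 0.03, 0.0322 and 0.00588), and with the block the first 2 did not pass (adjusted p = 0.0848 and 0.0789). Birc2, an inhibitor of apoptosis, changed by −0.30 with mOSM (adjusted p = 0.00103) and −0.36 with hlOSM (adjusted p = 0.000121). Birc5 (survivin) changed by −0.56 with hlOSM (adjusted p = 0.00507), as did Birc3 by −0.17 (adjusted p = 0.0411, and 0.092 with the block). Casp6, an executioner caspase, rose by 0.60 with mOSM (adjusted p = 0.016, and 0.0534 with the block). Htra2, a mitochondrial protease gene with 43.7% of its exonic bases under genes of the other strand, rose by 0.34 with hlOSM (adjusted p = 0.0428, and 0.0985 with the block).

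**Figure D5:**
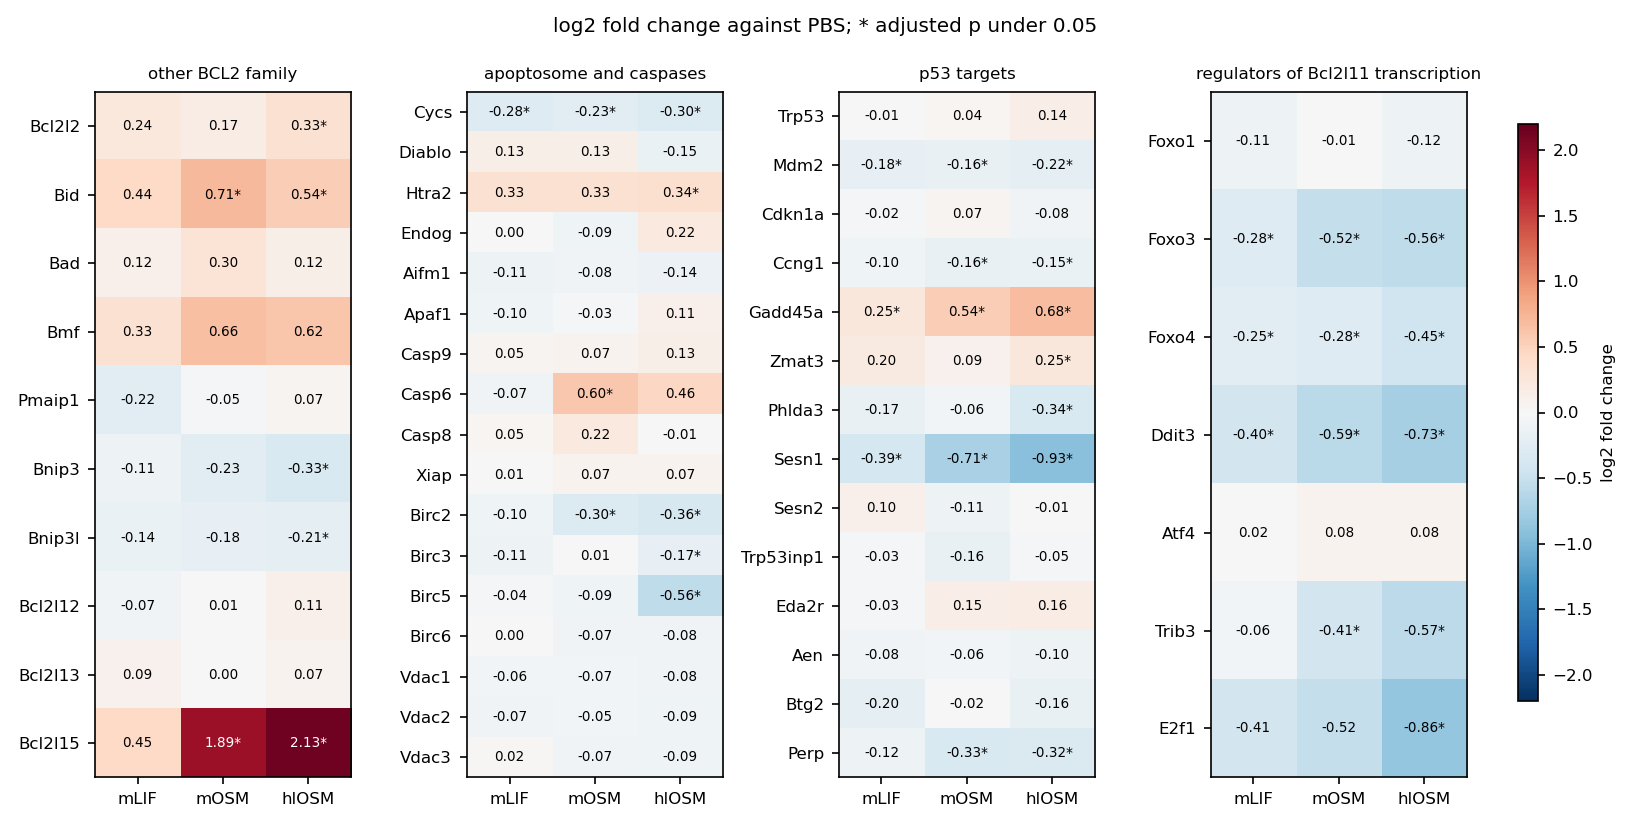
Log2 fold change against PBS (colour and number) of the tested genes in 4 lists, the other BCL2 family, the apoptosome and caspases, p53 and its targets, and regulators of Bcl2l11 transcription, with a star where the limma adjusted p was under 0.05. The value of Bcl2l15 at 2.13 with hlOSM is set against PBS libraries that were all under the minimum of 10, and the starred regulators of Bcl2l11 all lie below 0.

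Also listed were p53 with target genes other than Bbc3, and regulators of Bcl2l11 transcription. Of p53 and its targets, 14 genes in all, 1 rose and 2 fell under mLIF, 1 rose and 4 fell under mOSM, and 2 rose and 5 fell under hlOSM, against 9.91%, 31.2% and 37.9% of all genes called in either direction. With the block 0 rose and 1 fell, 1 rose and 3 fell, and 1 rose and 4 fell. The list stood at medians of −0.056, −0.064 and −0.091. Trp53 itself did not pass, with differences of −0.012, 0.041 and 0.14. Gadd45a, a growth arrest gene with 19.1% of its exonic bases under a gene of the other strand, rose by 0.25, 0.54 and 0.68 with mLIF, mOSM and hlOSM (limma adjusted p = 0.0432, 1.59e-05 and 5.34e-07), and with the block the first was 0.0896. Sesn1, a stress-responsive regulator of mTORC1, changed by −0.39, −0.71 and −0.93 (adjusted p = 0.0213, 1.78e-05 and 3.93e-07). Mdm2, the ubiquitin ligase of p53, changed by −0.18, −0.16 and −0.22 (adjusted p = 0.0249, 0.0153 and 0.00135), the first being 0.0553 with the block. Perp, which encodes a membrane protein, changed by −0.33 with mOSM and −0.32 with hlOSM (adjusted p = 0.00131 and 0.0015). The others that passed were Ccng1, lower with mOSM and hlOSM, Phlda3, lower with hlOSM, and Zmat3, higher with hlOSM. With the block Ccng1 (adjusted p = 0.0551 and 0.0647) and Zmat3 (adjusted p = 0.0504) did not pass.

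Of 7 regulators of Bcl2l11 transcription, 3, 4 and 5 fell with mLIF, mOSM and hlOSM, and 0 rose, where 4.44%, 15.8% and 19.8% of all genes fell. With the block 2, 3 and 5 fell. The list was chosen with earlier results of these data known, so these counts are descriptions and no independent support. The list stood at medians of −0.25, −0.41 and −0.56. The factor Foxo3 had 478 ± 57.9 normalized counts under PBS and 392 ± 3.79, 332 ± 23.3 and 322 ± 24.1 under mLIF, mOSM and hlOSM (each SD, n = 3). Its change was −0.28, −0.52 and −0.56 (limma adjusted p = 0.0235, 1.76e-05 and 4.73e-06). Ddit3, encoding the stress factor CHOP, changed by −0.40, −0.59 and −0.73 (adjusted p = 0.0115, 6.43e-05 and 3.05e-06), and Foxo4 by −0.25, −0.28 and −0.45 (adjusted p = 0.0294, 0.00481 and 3.4e-05, the first being 0.0758 with the block). Trib3, an inhibitor of AKT, changed by −0.41 with mOSM and −0.57 with hlOSM (adjusted p = 0.0226 and 0.00176, the former 0.0543 with the block), and E2f1, a cell cycle factor, by −0.86 with hlOSM (adjusted p = 0.00252). Bcl2l11 itself passed in no comparison.

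Of 4 genes that act on the stability of MCL1 protein, Fbxw7, a ubiquitin ligase subunit that marks MCL1, changed by −0.22, −0.34 and −0.43 with mLIF, mOSM and hlOSM (limma adjusted p = 0.0494, 0.00074 and 4.34e-05, the first being 0.0994 with the block), and the other 3 did not pass, at list medians of −0.018, −0.085 and −0.047. Thus 1 of 4 fell with each cytokine, where 4.44%, 15.8% and 19.8% of all genes did. A single gene of so short a list is not a result about MCL1 turnover. Of 9 genes whose proteins PIM kinases phosphorylate, 8 were tested, at medians of 0.013, 0.017 and −0.026. Foxo3 fell with all 3 cytokines, Cdc25a, a cell cycle phosphatase, rose with mOSM (0.35, adjusted p = 0.0163), and no other passed against PBS. Over all genes 9.91%, 31.2% and 37.9% passed with mLIF, mOSM and hlOSM. Map3k5, encoding the kinase ASK1, passed the overall F test with differences from PBS of 0.15, −0.079 and −0.055. Of 11 known response genes of gp130 and STAT3, 7, 9 and 8 rose with mLIF, mOSM and hlOSM, and 0, 0 and 1 fell, where 9.91%, 31.2% and 37.9% of all genes passed in either direction. With the block 6 rose with mLIF, the call of Stat3 being lost (adjusted p = 0.0528). These response genes, too, were listed with earlier results of these data known, so their counts are descriptions. The list stood at medians of 0.35, 0.40 and 0.44. The genes that rose included Socs3, the feedback inhibitor of gp130, at 1.00, 2.08 and 2.17 (adjusted p = 1.02e-07, 2.06e-14 and 8.8e-15), and Osmr and Timp1. Bcl3, a nuclear IkB protein that is not part of the BCL2 family, stood at 0.49, 0.97 and 1.04 (adjusted p = 0.00528, 3.21e-07 and 8.6e-08), beside 0.49, 1.00 and 1.18 for Pim3. The single response gene that fell was Fos, with hlOSM (−0.31, adjusted p = 0.00342).

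Over the 12 libraries, the log2 values of Bcl2l1 and Pim3 had a Pearson correlation of 0.93, those of Bak1 and Pim3 of 0.90, and those of Pim1 and Pim3 of −0.73. These libraries share conditions and normalization, and the values are descriptions without a test. Among 8669 genes whose mean normalized count was 50 or more, those most like Pim3 were 1110002E22Rik, Sgpp1 and Clic1, each with a correlation of 0.99 over the 12 libraries. For Bcl2l1 they were Tec, Inpp4b and Plin2 (0.99, 0.99 and 0.98), and for Bak1 they were Prelid1, Jup and Mfsd5 (0.97, 0.97 and 0.95).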

How the data were processed

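RNA-seq of 12 libraries of primary cardiomyocytes, 3 per condition, was used, with each library assigned by its title. The authors aligned trimmed reads to mm10 with STAR 2.7.7a and counted them per gene with featureCounts 1.6.5, leaving out reads that mapped to several places or overlapped several genes. They deposited these counts after normalization between libraries and rounding, and the values are treated here as a score. The normalization method is not given in the sources used here. Since the counted reads behind each value are unknown, no counting interval could be given.

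Members and gene lists were chosen with earlier results of these data known. The limma fit (version 3.58.1, R 4.3.3, eBayes with trend) held all 4 conditions, and it was tested on simulated data. Their noise was drawn independently for each gene and library. They therefore cannot show how the fit behaves if an effect of the replicate number was taken out before deposit. Exon lengths and overlaps came from GENCODE M21, where 22876 of 22915 genes were found and all 10 members had the position of the deposited table. All 10 members had a RefSeq promoter window. Both strands were searched, also for CACGTG, held by 7.15% of all windows. TGACGTCA was held by 1.79%.

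Some genes of the apoptosome list are not reported here and were left out of its counts. Named genes were all 10 members and, per list, up to 4 genes with the smallest overall F test p. Bnip3l, Bad, Birc3, Htra2, Trp53, Ccng1, Phlda3, Zmat3, E2f1, Cdc25a, Fos, Stat3, Ryr2, Pln, Col1a1, Col1a2, Lum, Cd68, Lyz2, Ggnbp1, Gm26885 and genes named for being near 0 were chosen after their values were seen where that rule did not name them. Alternatives comprised other pseudocounts (0.1 and 5), other filters (none and 50), trimmed-mean (TMM) and quantile rescaling, a block for the replicate number, leaving out each library, and fitting only the libraries compared.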

Additional observations from a re-analysis of the deposited data

How the results depend on the processing

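The members called with mLIF against PBS numbered 2, but 1 after quantile normalization and 1 with the replicate number as a block, Bak1 being lost both times. Over the fits without 1 library, the members called against PBS numbered 1 to 2 with mLIF, 3 to 4 with mOSM and 4 to 6 with hlOSM. Against mLIF they numbered 1 to 2 with mOSM and 2 to 3 with hlOSM. The comparison of hlOSM with mOSM and the interaction gave 0 under every alternative run. The overall F test gave 3 to 5 members over all alternatives, and its call of Bcl2 was lost in 9 of 12 fits without 1 library. Of 1376 refits of single members in the pairwise comparisons and the interaction, 1357 kept the side of the threshold, 11 lost a call, 8 gained a call and 0 reversed a called direction. Pseudocount, filter, TMM rescaling and the fit of only the libraries compared changed none of these calls, and the filter at 50 left out Bbc3 and Pim2. The cause of the lost and gained calls was not tested.

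Libraries of different conditions share a replicate number without a stated link. Over the 18 same-numbered pairs the correlation of deviations from the condition means was −0.406 to −0.151, against 0.00438 to 0.328 for other pairs, so the numbers were not taken to pair the libraries. Whether the deposited values had an effect of the replicate number taken out was not tested, and if it was, these correlations do not show that the libraries are unpaired. With the block, Bak1 with mLIF had an adjusted p of 0.0591 (limma) and Bcl2 one of 0.117 in the overall F test. No other call of a member changed. Beyond the members, the calls against PBS of listed genes that it ended are named beside each list.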

Other observations

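Ratios of opposing members within a library were computed on the log2(normalized count + 1) scale and carry no test. The log2 ratio of Bcl2 to Bax was 0.87 ± 0.26 under PBS, 0.59 ± 0.038 under mLIF, 0.65 ± 0.44 under mOSM and 0.32 ± 0.20 under hlOSM (each SD, n = 3). Its hlOSM libraries, at 0.33, 0.52 and 0.11, lay below the PBS libraries, at 0.89, 1.12 and 0.60, whereas the mOSM libraries, at 0.59, 0.25 and 1.12, overlapped them. The log2 ratio of Bcl2l1 to Bax was 2.65 ± 0.18 under PBS, 2.60 ± 0.097 under mLIF, 3.11 ± 0.42 under mOSM and 2.90 ± 0.25 under hlOSM (each SD, n = 3), and every cytokine overlapped PBS. The log2 ratio of Mcl1 to Bcl2l11 was 4.38 ± 0.20 under PBS, 4.36 ± 0.30 under mLIF, 4.02 ± 0.21 under mOSM and 4.34 ± 0.21 under hlOSM (each SD, n = 3), and every cytokine overlapped PBS.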
